A study of Mus musculus with 22 samples.

Results

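The 10 reactive astrocyte genes described here were Gfap, Vim, Nes, Serpina3n, Cd44, Lcn2, Steap4, Emp1, Tm4sf1 and Cd109. They were found by gene symbol in the table of 53379 genes, where all 10 were present, and all 10 had enough counts to be among the 40714 genes tested. The libraries were mRNAseq of nuclei from the hippocampus contralateral to the injection (CLH) of adult male C57/BL6N mice, 24 h after status epilepticus. The mice arrived at 8 weeks of age, were acclimatised for 4 weeks and were anaesthetised with medetomidine and ketamine. Kainate mice had received 70 nl of 20 mM kainate above the right hippocampus and had shown convulsive seizures of Racine grade 5 within 4 h, whereas sham mice had received saline at the same place. Buprenorphine was given after the procedure. The left hippocampi of 8 mice per treatment were combined into 3 pools of 4, 2 and 2 mice, and NeuN+ nuclei (neurons) and NeuN– nuclei (glia) were sorted from each pool. Each fraction of a pool gave 1 library, named here by its replicate number. Sham glia replicate 2 failed in preparation, which left 2 libraries in that group and 3 in every other.

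The libraries held 12058875 to 45428465 counts. For 9 of them 1 ng RNA was amplified over 10 PCR cycles. Only 0.05 ng was at hand for replicate 2 of kainate glia and replicate 1 of sham glia, and these had 15 cycles. The 4 libraries of replicate 1 stood apart from the other 7 on the second axis of a multidimensional scaling (1.28 to 2.43, against -2.02 to -0.22), so the numbers of called genes are also given without them. The NeuN– fraction was not astrocytes alone. The 12 astrocyte markers summed to 641 to 6500.5 normalized CPM (counts over the TMM-scaled library total) in the glia libraries, the 9 microglia markers to 733 to 3799, the 8 oligodendrocyte markers to 5099 to 42129.8 and the 9 endothelial and pericyte markers to 56.0 to 85.1. All libraries are of bulk nuclei, so that more nuclei of a type and more RNA per nucleus cannot be told apart.

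Astrocytes take up glutamate and potassium, couple through gap junctions and cover blood vessels. After injury or seizures they become reactive: they enlarge, assemble more intermediate filaments and secrete acute-phase proteins, and cytokines of the IL-6 family that act through gp130, JAK kinases and STAT3 are among the known inducers. Gfap, Vim, Serpina3n, Cd44, Lcn2 and Steap4 are usually listed among the genes raised in any reactive astrocyte (pan-reactive), and Emp1, Tm4sf1 and Cd109 in the A2 profile first described after ischaemia. Nes marks neural progenitors and is re-expressed by reactive astrocytes. None of the 10 is made by astrocytes alone. Vim, Cd44 and Tm4sf1, for example, are also made by cells of blood vessels.

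Because Serpina3n, Cd44, Emp1 and Tm4sf1 were upregulated together in glia, the DNA in front of their RefSeq starts is shown first, with 2 motifs in capitals: the STAT site TTCNNNGAA and the AP-1 site TGANTCA. Each reads the same on both strands. RefSeq promoters of GRCm38.p6, 250 bases before to 50 after a start, were listed for 9 of the 10 genes, and Cd109 was not listed. The stretches lie at chr12:104406458-104406707 (plus strand), chr2:102901666-102901915 (minus strand), chr6:135362708-135362930 (plus strand) and chr3:57301989-57302238 (minus strand), and they end 1 base before the start.
Serpina3n: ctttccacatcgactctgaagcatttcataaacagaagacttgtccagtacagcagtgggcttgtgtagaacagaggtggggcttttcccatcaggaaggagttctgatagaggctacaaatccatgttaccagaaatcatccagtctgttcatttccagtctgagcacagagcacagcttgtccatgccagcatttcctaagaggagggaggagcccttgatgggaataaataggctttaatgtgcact
Cd44: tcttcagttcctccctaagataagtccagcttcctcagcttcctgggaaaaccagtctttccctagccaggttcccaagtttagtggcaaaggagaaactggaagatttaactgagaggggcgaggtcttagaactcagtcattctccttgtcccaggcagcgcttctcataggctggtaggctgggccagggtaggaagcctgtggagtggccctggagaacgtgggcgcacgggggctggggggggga
Emp1: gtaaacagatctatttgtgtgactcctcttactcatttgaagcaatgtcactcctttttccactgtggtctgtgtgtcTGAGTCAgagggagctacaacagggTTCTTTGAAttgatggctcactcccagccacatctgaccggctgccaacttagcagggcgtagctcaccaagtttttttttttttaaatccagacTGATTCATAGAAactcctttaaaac
Tm4sf1: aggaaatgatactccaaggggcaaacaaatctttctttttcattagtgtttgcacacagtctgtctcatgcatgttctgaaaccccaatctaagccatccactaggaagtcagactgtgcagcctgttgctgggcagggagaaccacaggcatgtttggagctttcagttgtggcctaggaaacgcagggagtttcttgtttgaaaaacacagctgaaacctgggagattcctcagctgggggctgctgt
Only the Emp1 stretch among these held a match. It had AP-1 matches TGAGTCA and TGATTCA and STAT matches TTCTTTGAA and TTCATAGAA, and the TGATTCA and TTCATAGAA matches shared 4 bases. The last 27 bases of the Emp1 stretch are a 5′ UTR exon of a longer transcript. Serpina3n, Cd44 and Tm4sf1 had neither motif in the whole window. The other matches were STAT sites at Gfap and Steap4, shown here with their surroundings at chr11:102897181-102897260 (minus strand) and chr5:7960342-7960421 (plus strand).
Gfap: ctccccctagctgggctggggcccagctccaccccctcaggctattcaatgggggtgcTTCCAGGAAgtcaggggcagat
Steap4: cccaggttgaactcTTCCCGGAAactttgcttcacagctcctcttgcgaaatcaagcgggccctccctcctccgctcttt
The Gfap match spanned the RefSeq start itself, and the last 20 bases of that stretch are 5′ UTR. In all, the STAT site was in 3 of the 10 promoters listed for these genes (Emp1 has 2 entries) and in 8.3% of 32851 mouse promoters, and the AP-1 site in 1 of 10 and in 7.81%. A match of letters is a description and does not show that a factor was bound.

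In glia, 4 of the 10 genes were upregulated after kainate at a false discovery rate (FDR) below 0.25, the threshold used throughout, and none was downregulated. Serpina3n, Tm4sf1, Emp1 and Cd44 were 13.1 to 19.4 times as high in kainate as in sham glia. Over all genes tested, 0.0933% were upregulated in glia. The median log2 fold change (logFC) of the 10 genes was 1.94, against 0.023 for all genes, and all 10 logFC values were above 0. Those of Steap4 and Cd109 were below 0 without both libraries of low input (-0.32 and -0.48), and those of Lcn2, Steap4 and Cd109 without the libraries of replicate 1 (-0.51, -0.24 and -0.24). With the replicate number as a block, which pairs a kainate with a sham library, 7 of 10 were upregulated, and so were 2.93% of all genes. In this block fit kainate glia replicate 2 has no sham partner and does not bear on the glial effect.

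In neurons, 1 of the 10 genes, Vim, was upregulated, and 0.157% of all genes were. The median logFC was 1.65, against -0.015 for all genes, and 8 of 10 values were above 0. With the replicate block, 7 of 10 passed, and 3.19% of all genes did. Libraries did not overlap, with every kainate library above every sham library, for 6 of the 10 genes in neurons and for 6 in glia, whereas this held for 4.26% and 4.7% of all genes. Gfap, Serpina3n, Cd44, Emp1 and Tm4sf1 were in both sets, Vim in neurons and Nes in glia.

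**Figure D1:**
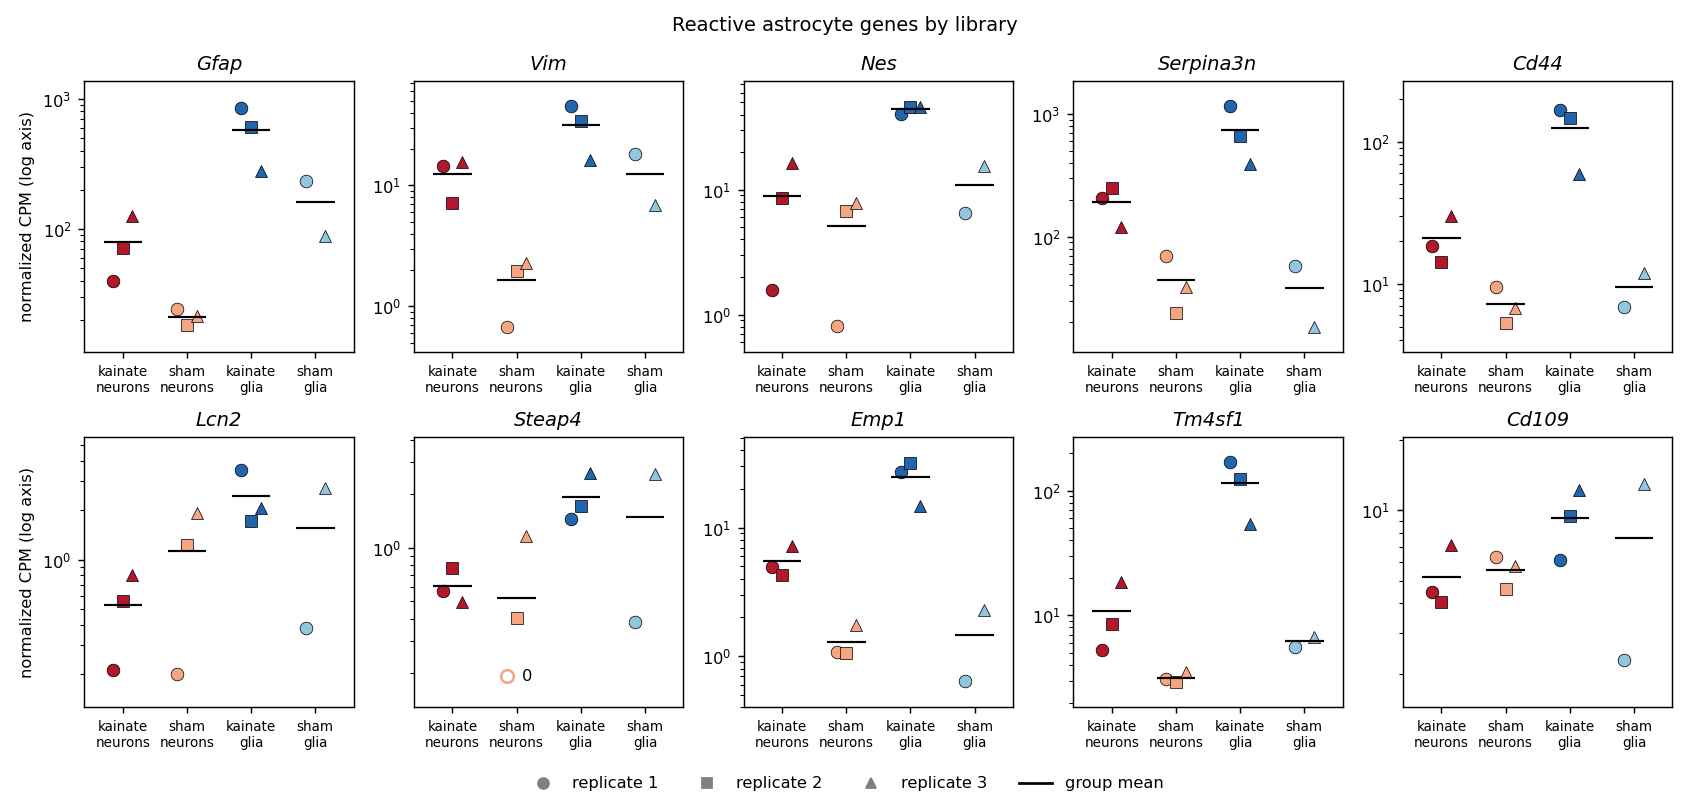
Normalized CPM of the 10 genes in each of the 11 libraries, on a log axis, by group, with the symbol giving the replicate number and the line the group mean. Serpina3n, Cd44, Emp1 and Tm4sf1 in kainate glia lie above every other library, while Lcn2, Steap4 and Cd109 overlap between kainate and sham in both cell types. The open symbol is a count of 0.

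The intermediate filament genes come first. Gfap (chr11:102887336-102900912, minus strand of GRCm38, as all positions below) encodes the filament protein by which astrocytes are usually stained. In glia it was at 857, 608 and 278 CPM in kainate replicates 1, 2 and 3 and at 232 and 87.9 CPM in sham replicates 1 and 3. Every kainate glia library was above both sham libraries, the third of them by little. The logFC was 1.86 ± 0.61 (SE) and did not pass (edgeR, FDR = 1.0), but it passed with the replicate block (1.77 ± 0.26, FDR = 2.07e-06). The neuron libraries held 39.9, 71.5 and 126 CPM after kainate and 24.0, 18.1 and 21.3 CPM in sham. Here too the groups did not overlap, and the sham libraries were close together. The logFC of 1.90 ± 0.53 was close to that in glia. It did not pass without the block (FDR = 0.617) and passed with it (FDR = 3.17e-08).

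Vim (chr2:13573927-13582826, plus strand) encodes vimentin, which co-assembles with GFAP. In neurons it was at 14.4, 7.19 and 15.6 CPM after kainate and at 0.671, 1.95 and 2.29 CPM in sham, so that each kainate library was well above each sham library. Its logFC of 2.89 ± 0.57 (FDR = 0.169) was the only call among the 10 genes in neurons. The call was lost without any 1 of the 6 neuron libraries and without kainate glia replicate 2 (FDR 0.342 to 0.915 over these 7 fits), with the logFC between 2.55 and 3.19. In glia Vim was at 45.7, 33.9 and 16.1 CPM after kainate and at 18.1 and 6.89 CPM in sham, and kainate replicate 3 lay below sham replicate 1. By number, kainate exceeded sham 2.53-fold in replicate 1 and 2.33-fold in replicate 3. The glial logFC was 1.35 ± 0.61 (FDR = 1.0) and passed with the block (1.28 ± 0.33, FDR = 0.0151).

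Nes (chr3:87971078-87980451, plus strand) encodes nestin. In glia the 3 kainate libraries lay together at 40.5, 46.4 and 46.4 CPM, above the sham libraries at 6.52 and 15.4 CPM. The logFC was 2.02 ± 0.89 (FDR = 1.0), and with the block 2.09 ± 0.31 (FDR = 2.7e-06). In neurons Nes was at 1.57, 8.54 and 16.5 CPM after kainate and at 0.806, 6.75 and 7.83 CPM in sham. Replicate 1 was the lowest of its group in both treatments, and the groups overlapped. The logFC of 0.78 ± 0.74 passed only with the block (FDR = 0.167).

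Of the secreted proteins, Serpina3n (chr12:104406729-104414329, plus strand) encodes an inhibitor of serine proteases of the acute-phase type. In glia it was at 1161, 665 and 389 CPM after kainate and at 57.6 and 18.4 CPM in sham. The lowest kainate library was several times above the highest sham library, and the ratio by number was 20.1 in replicate 1 and 21.1 in replicate 3, the closest pair of ratios of the 4 genes called in glia. The logFC was 4.28 ± 0.74 (FDR = 0.115). In neurons the values were 205, 248 and 121 CPM after kainate and 70.1, 23.8 and 39.1 CPM in sham, again without overlap. The logFC there was 2.11 ± 0.57 (FDR = 0.554), and it passed with the block (2.17 ± 0.22, FDR = 3.59e-10). Serpina3n lies in a cluster of closely related genes, and reads that map to several places were not counted, so its count is uncertain to that extent.

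Lcn2 (chr2:32384633-32388252, minus strand) encodes lipocalin 2, which binds bacterial siderophores and is known as one of the strongest markers of reactive astrocytes. It was barely detected, with 3 to 73 counts per library. The glia libraries had 3.51, 1.73 and 2.05 CPM after kainate and 0.383 and 2.73 CPM in sham, and the neuron libraries 0.213, 0.561 and 0.811 CPM after kainate and 0.201, 1.23 and 1.93 CPM in sham. Groups overlapped in both cell types. The logFC was 0.63 ± 0.96 in glia and -1.08 ± 0.87 in neurons, and neither passed with or without the block (FDR 0.709 to 1.0).

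Among the membrane proteins, Cd44 (chr2:102811141-102901665, minus strand) encodes the receptor for hyaluronan. In glia it was at 167, 146 and 59.6 CPM after kainate and at 6.84 and 12 CPM in sham, with the lowest kainate library well above sham. The logFC was 3.72 ± 0.58 (FDR = 0.0763). In neurons it was at 18.4, 14.3 and 30.2 CPM after kainate and at 9.53, 5.31 and 6.77 CPM in sham, so the groups were apart by a smaller step. The logFC of 1.54 ± 0.45 did not pass without the block (FDR = 0.768) and passed with it (FDR = 3.47e-05).

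Tm4sf1 (chr3:57285611-57301988, minus strand) encodes a small membrane protein of the tetraspanin-like TM4SF group. In glia it was at 169, 124 and 54.4 CPM after kainate and at 5.62 and 6.74 CPM in sham, and the sham libraries nearly coincided. The logFC was 4.22 ± 0.64 (FDR = 0.0763). The neuron libraries were at 5.26, 8.49 and 18.5 CPM after kainate and at 3.09, 2.93 and 3.51 CPM in sham, and did not overlap. Their logFC of 1.76 ± 0.49 did not pass without the block (FDR = 0.623) and passed with it (FDR = 2.52e-05).

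Emp1 (chr6:135362545-135383173, plus strand) encodes epithelial membrane protein 1. In glia it was at 27, 31.9 and 14.7 CPM after kainate and at 0.639 and 2.28 CPM in sham, the latter from 10 and 46 counts. The logFC was 4.05 ± 0.64 (FDR = 0.0763). In neurons it was at 4.98, 4.26 and 7.21 CPM after kainate and at 1.07, 1.06 and 1.74 CPM in sham, and the 3 ratios by number lay close together, from 4.01 to 4.64. The neuronal logFC of 2.07 ± 0.50 did not pass without the block (FDR = 0.374) and passed with it (FDR = 1.58e-05).

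Steap4 (chr5:7960457-7982213, plus strand), which encodes a metalloreductase of iron and copper, and Cd109 (chr9:78615546-78716253, plus strand), which encodes a GPI-anchored protein that binds TGF-beta, did not pass in either cell type with or without the block. Steap4 had 0 to 93 counts per library. In glia it was at 1.44, 1.70 and 2.61 CPM after kainate and at 0.383 and 2.58 CPM in sham, and the logFC was 0.37 ± 1.09. In neurons the range was 0.495 to 0.765 CPM after kainate and 0 to 1.16 CPM in sham, with overlap in both cell types. Cd109 was at 6.15, 9.47 and 12.2 CPM in kainate glia and at 2.30 and 12.9 CPM in sham glia, so the sham libraries enclosed the kainate ones. Its logFC was 0.28 ± 0.60 in glia and -0.099 ± 0.54 in neurons, where kainate libraries ranged from 4.05 to 7.07 CPM and sham libraries from 4.62 to 6.31 CPM. Without sham glia replicate 3 the glial logFC of Cd109 was 2.0 and passed (FDR = 0.236). Thus of the 3 genes here from the A2 profile, Emp1 and Tm4sf1 passed in glia and Cd109 did not, and of the 6 pan-reactive genes Serpina3n and Cd44 passed there without the block.

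**Figure D2:**
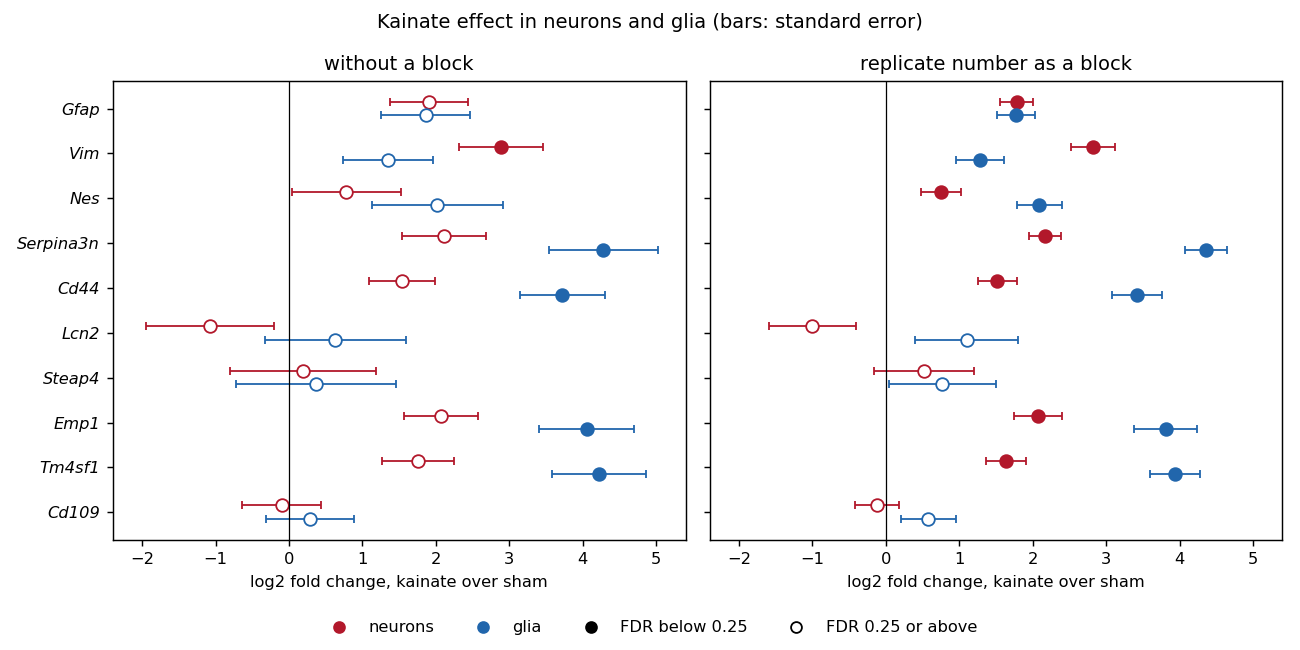
LogFC of kainate over sham with its standard error for each gene in neurons (red) and glia (blue), from the edgeR fit without a block (left) and with the replicate number as a block (right); filled points have FDR below 0.25. Without the block 4 glial points and 1 neuronal point are filled, and with it 7 and 7, while Lcn2, Steap4 and Cd109 have unfilled points in both panels.

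The glial calls depended on few libraries. All 4 were lost without kainate glia replicate 2 (FDR = 0.26 for each) and without sham glia replicate 1 (FDR 0.326 to 0.405), which are the 2 libraries of low RNA input, and Serpina3n was also lost without kainate glia replicate 1 (FDR = 0.256). Leaving out sham glia replicate 1 keeps a single library in that group, whose spread is then assumed to equal that of the rest. The logFC stayed between 3.40 and 5.35 in these fits. In neurons, Serpina3n and Emp1 passed as well without either sham glia library (FDR 0.181 and 0.183 for Serpina3n, 0.116 and 0.112 for Emp1). The study analysed neurons and glia separately, and fewer genes remained after its filter than the 40714 tested here. It reported Serpina3n, Cd44, Emp1 and Tm4sf1 as upregulated in glia, and Vim, Serpina3n and Emp1 in neurons. The fits of each cell type alone given here do not repeat its analysis. With edgeR fitted on the glia libraries alone, none of the 10 genes passed and 0.0% of all genes were upregulated. There, 6 of the 10 were higher at an unadjusted p below 0.05 (0.793% of all genes). When neurons were fitted alone, 5 of the 10 were upregulated (1.07% of all genes). With a filter that was not given the groups, added after the data were seen, 8 of the 10 genes were tested in these separate fits, without Lcn2 and Steap4. Then 2 were upregulated in glia, namely Serpina3n (4.42, FDR = 0.162) and Tm4sf1 (4.13, FDR = 0.151), as were 0.278% of 21243 genes, and 6 in neurons, as were 2.2% of 21226 genes. Without both libraries of low input, 2 of the 10 were upregulated in neurons (0.204% of all genes) and 0 in glia (0.00226%). DESeq2's Wald test called 6 in neurons and 5 in glia of the 8 with an adjusted p, against 1.34% and 1.07% of the genes that had one. Without the 4 libraries of replicate 1, a choice made after the data were seen, 7 of 10 genes were upregulated in glia (0.954% of all genes) and 6 in neurons (1.41% of all genes). Sham glia is then the single library of replicate 3.

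**Figure D3:**
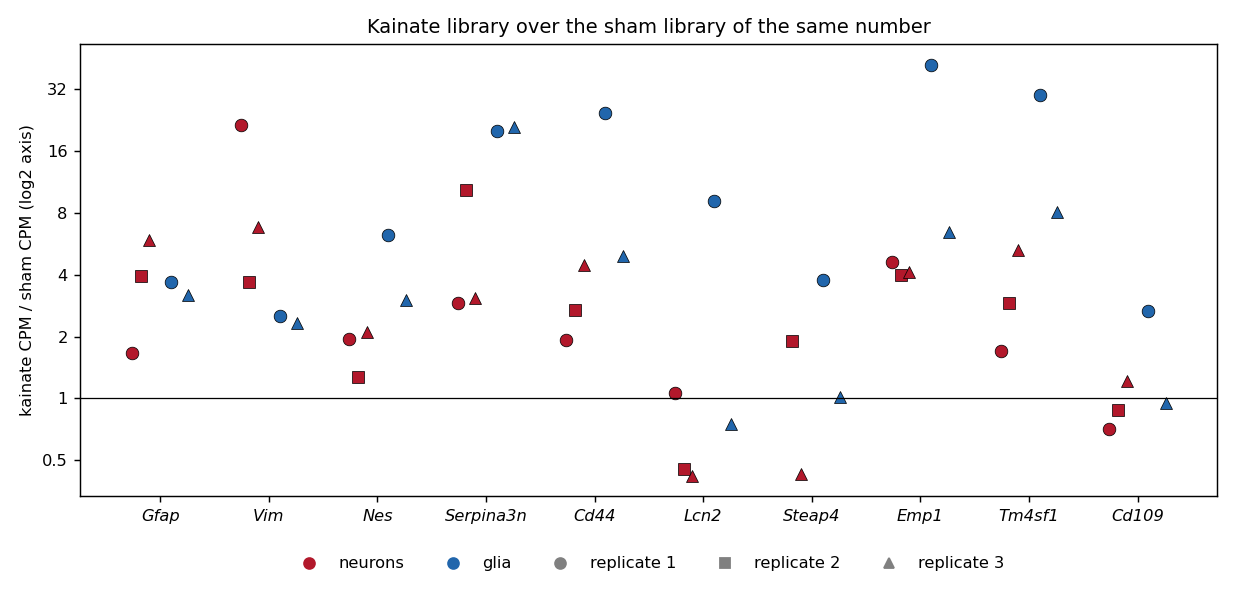
Ratio of normalized CPM in a kainate library to the sham library with the same replicate number, on a log2 axis, for neurons (3 numbers) and glia (2 numbers, since sham glia replicate 2 is missing). All 5 ratios are above 1 for Gfap, Vim, Nes, Serpina3n, Cd44, Emp1 and Tm4sf1; Steap4 in neurons of replicate 1 has no point because the sham count was 0.

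The size of the kainate effect was then compared between neurons and glia. No member of the 10 had a different effect at FDR below 0.25 in edgeR (1 gene, or 0.00246% of those tested, did), and DESeq2 called none of the 8 for which it gave an adjusted p. Without the libraries of replicate 1 the effect differed for Serpina3n (-2.38, FDR = 0.145) and for 0.151% of all genes. At an unadjusted p below 0.05, 4 had a smaller effect in neurons (Tm4sf1, Cd44, Emp1 and Serpina3n) and 0 a larger one, and the effect was smaller in neurons for 0.462% of all genes at this level. The median difference of logFC, neurons minus glia, was -1.47 for the 10 genes and -0.03 for all genes. With the replicate block 6 of the 10 passed, against 1.94% of all genes. The effect was smaller in neurons for Tm4sf1 (difference -2.30 ± 0.42, FDR = 0.000625), Serpina3n (-2.20 ± 0.34, FDR = 5.3e-05), Cd44 (-1.90 ± 0.41, FDR = 0.00666), Emp1 (-1.73 ± 0.54, FDR = 0.152) and Nes (-1.34 ± 0.40, FDR = 0.124). It was larger in neurons for Vim alone (1.54 ± 0.44, FDR = 0.0887). Without the block the difference for Vim was 1.53, and it was 0.70 without both libraries of low input and 0.47 without the libraries of replicate 1 (FDR = 1.0 in each). For Gfap the difference was 0.0056 ± 0.32 with the block. With the pool as the block, which pairs neurons with glia of the same mice, none of the 10 passed.

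The level in neurons was also set against that in glia within each treatment. In sham mice, Gfap and Vim were lower in neurons (logFC -2.92 ± 0.58, FDR = 0.00562, and -2.90 ± 0.60, FDR = 0.00733), and 7.63% of all genes were. The other 8 did not pass, and Serpina3n was at 23.8 to 70.1 CPM in sham neurons and at 18.4 and 57.6 CPM in sham glia. With the pool as a block 4 were lower in neurons (15.7% of all genes), namely Gfap, Vim, Nes and Steap4, and Serpina3n was higher in neurons (logFC 0.68 ± 0.33, FDR = 0.208). Every sham neuron library was below both sham glia libraries for 3 of the 10 genes (Gfap, Vim and Tm4sf1) and for 12.5% of all genes. In the pool block sham neurons replicate 2 has no glia partner. Single libraries changed 3 further calls in sham mice: Steap4 was lower in neurons without sham glia replicate 1 (logFC -2.2, FDR = 0.229), Tm4sf1 without kainate glia replicate 3 (-1.26, FDR = 0.147), and Cd109 was lower without sham glia replicate 1 (-1.17, FDR = 0.204) and higher without sham glia replicate 3 (1.27, FDR = 0.247). Without the libraries of replicate 1, 7 were lower in neurons (21.9% of all genes) and Serpina3n was higher (0.94, FDR = 0.15).

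In kainate mice, 8 of the 10 genes were lower in neurons than in glia, against 9.39% of all genes. Steap4 and Cd109 were the exceptions, and with the pool as a block all 10 passed (27.9% of all genes). The largest difference was that of Tm4sf1, 10.7 times as high in glia (logFC of neurons minus glia -3.42 ± 0.52, FDR = 0.00122), and the smallest of the 8 that of Vim (-1.36 ± 0.53, FDR = 0.149). The neuron libraries lay below the glia libraries without overlap for 9 of the 10 genes and for 16.4% of all genes. The calls of Vim and Lcn2 were each lost without replicate 1 or replicate 2 of the neurons or of the glia (FDR 0.253 to 0.453). Cd109 passed without either sham glia library (logFC -0.82, FDR 0.226 and 0.221). Without the libraries of replicate 1 all 10 were lower in neurons, and so were 28.4% of all genes.

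Scaled to exonic length, the order of the 10 levels also differed between groups. In kainate glia Serpina3n was the highest at 358 ± 189.6 CPM per kb (SD, n = 3), followed by Gfap at 138 ± 68.8, Tm4sf1 at 27.8 ± 13.8 and Cd44 at 18.3 ± 8.42. Nes (6.92 ± 0.527), Vim (6.73 ± 3.15) and Emp1 (4.14 ± 1.49) came next, and Nes and Vim differed by less than their spread. Cd109 (1.34 ± 0.437), Lcn2 (0.927 ± 0.362) and Steap4 (0.608 ± 0.195) were at the bottom. In sham glia Gfap was the highest at 37.9 ± 24.2 CPM per kb (n = 2), above Serpina3n at 18.4 ± 13.4. This gap was smaller than the spread of Gfap. Within each library Gfap was the higher, at 55.0 against 27.9 in replicate 1 and 20.8 against 8.94 in replicate 3. Gfap gave 52.3% and 70.2% of the summed CPM of the 10 genes in the sham glia libraries and 31.8% to 36.5% in the kainate glia libraries, while the share of Serpina3n was 11% and 17.4% in sham and 39.8% to 46.8% after kainate.

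The genes were also set against 12 astrocyte markers of the resting state, among them the glutamate transporters Slc1a2 and Slc1a3 and the connexin Gja1. In glia none of these 12 passed in either direction, nor at an unadjusted p below 0.05 (median logFC -0.92), and with the replicate block 7 were lower and none higher. The share of all genes lower with this block, in glia or in neurons, was not counted, so the 7 cannot be set against it. The 10 reactive genes summed to 2478, 1669 and 875 CPM in kainate glia and to 330.4 and 168 CPM in sham glia, whereas the astrocyte markers summed to 4333, 1889 and 641 CPM and to 6500.5 and 1615 CPM in the same libraries. Both sums were highest in replicate 1 of each treatment. As a percentage of the astrocyte marker sum, the reactive genes reached 57.2%, 88.3% and 136% in kainate glia and 5.08% and 10.4% in sham glia, without overlap. In neurons the corresponding values were 71.1%, 84.9% and 77.4% after kainate and 23.4%, 21.7% and 25.2% in sham.

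**Figure D4:**
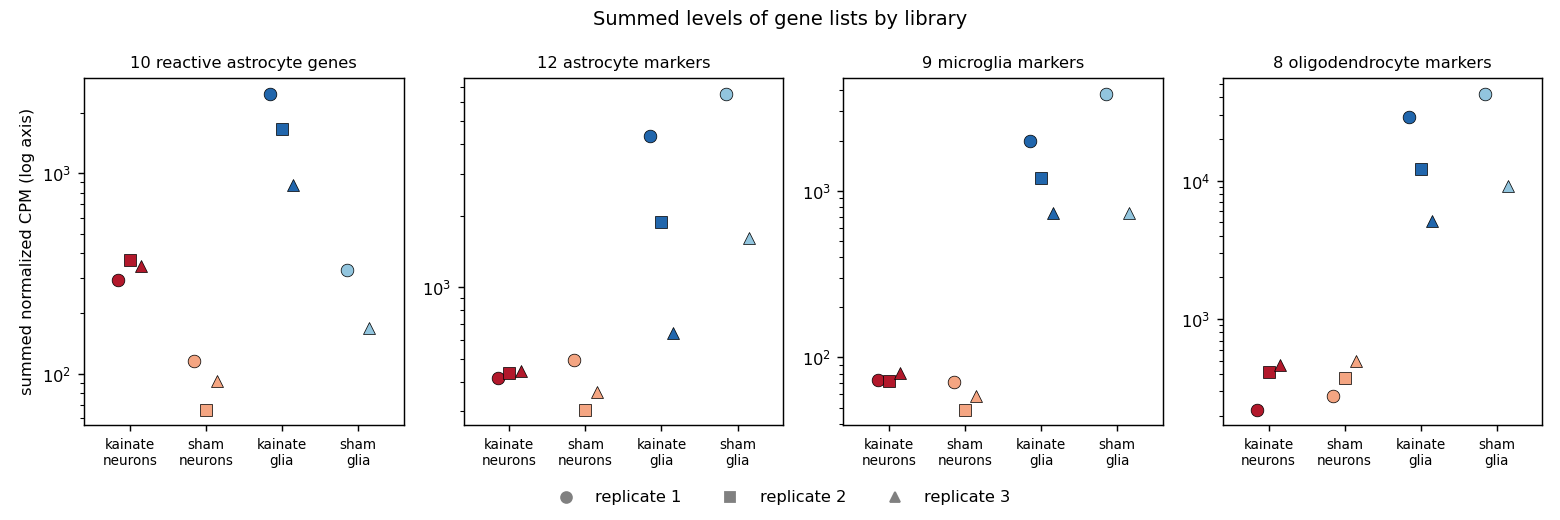
Summed normalized CPM of the 10 reactive astrocyte genes and of markers of astrocytes, microglia and oligodendrocytes in each library, on log axes, with the symbol giving the replicate number. The reactive genes are higher after kainate in both cell types, while each glial marker sum of kainate glia overlaps that of sham glia.

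Markers of other cell types that the glia fraction could hold did not pass either. In glia this was so for 9 microglia, 8 oligodendrocyte, 5 oligodendrocyte precursor, 9 endothelial and pericyte, 5 ependymal and choroid plexus and 8 neuron markers. At an unadjusted p below 0.05, 1 microglia and 1 oligodendrocyte precursor marker were lower in glia, and none of these markers was higher. With the replicate block 2 microglia, 5 oligodendrocyte and 5 precursor markers were lower, 2 ependymal and 2 neuron markers were higher, and no endothelial or pericyte marker passed. Here too the share of all genes that were lower was not counted. The endothelial and pericyte markers, the cell types that also make Vim, Cd44 and Tm4sf1, summed to 56.0 to 76.8 CPM in kainate glia and to 63.1 and 85.1 CPM in sham glia, with overlap.

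Astrocyte markers were also present in the NeuN+ libraries, at 414 to 444 CPM after kainate and 305 to 494 CPM in sham, and these ranges overlapped. None of the 12 passed in neurons (median logFC 0.21), and with the replicate block 4 were higher and 3 lower. At an unadjusted p below 0.05, 2 were higher in neurons, named here after their values were seen: the transcription factor gene Sox9 (1.70 ± 0.65, FDR = 1.0, and 2.11e-08 with the block) and the water channel gene Aqp4 (1.51 ± 0.65, FDR = 1.0, and 5.73e-06 with the block). However, 5 of the 12 logFC values in neurons were below 0. The markers lower with the block were Atp1b2 (-0.69, FDR = 0.0159), Slc1a3 (-0.65, FDR = 0.0503) and Gja1 (-0.63, FDR = 0.107). Aldh1l1 and Slc1a2 were also higher with the block. No marker of the list was at 0. In the pools of kainate replicates 1, 2 and 3, the neuron library held 9.56%, 22.9% and 69.2% of the astrocyte marker sum of the glia library of the same mice, and 11.9%, 22.0% and 39.3% of the sum of the reactive genes. In sham replicates 1 and 3 the astrocyte marker percentages were 7.60% and 22.5%, and those of the reactive genes 35.1% and 54.5%. The part of astrocyte RNA or nuclei in the neuronal values was not tested.

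Other genes of the same response were taken from fixed lists. Of 7 further pan-reactive genes, 3 were upregulated in glia (6 with the block): Timp1, an inhibitor of metalloproteinases (logFC 5.64 ± 0.89, FDR = 0.0763), S1pr3, a sphingosine-1-phosphate receptor (3.61 ± 0.59, FDR = 0.0825), and Hspb1, a small heat shock protein (3.47 ± 0.70, FDR = 0.227). In neurons Timp1 was upregulated (3.31 ± 0.66, FDR = 0.169), and with the block 4 of the 7 were. Of 9 further A2 genes, the pentraxin Ptx3 (4.97 ± 0.89, FDR = 0.142) and the sphingosine kinase Sphk1 (3.44 ± 0.63, FDR = 0.142) were upregulated in glia, and Ptx3 (3.56 ± 0.72, FDR = 0.18) and the cytokine Clcf1 (2.61 ± 0.48, FDR = 0.137) in neurons. With the block, 9 of these 9 passed in glia and 7 in neurons. Of 12 genes of the A1 profile none passed in either cell type in edgeR (2 in glia and 1 in neurons were higher at an unadjusted p below 0.05, as were 1.35% and 1.46% of all genes), and with the block 5 were higher in glia and 3 in neurons.

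Of 15 genes of IL-6 family signalling, Socs3, the feedback inhibitor that STAT3 induces, was upregulated in glia (5.50 ± 0.54, FDR = 0.00358) and in neurons (4.47 ± 0.43, FDR = 0.00143). Its mean level was 476 CPM in kainate glia against 10.5 in sham glia, and 69.8 against 3.14 CPM in neurons. Clcf1, itself an IL-6 family cytokine and also on the A2 list, was the other gene that passed, in neurons. With the block 7 were higher and 1 lower in glia, and 6 were higher and 1 lower in neurons. The median logFC of the list was 0.36 in glia and 0.37 in neurons.

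Over the 11 libraries, the genes whose log2 CPM followed the mean of the 10 most closely, among 24712 genes with a mean of at least 1 CPM, included Itga5 (Pearson r = 0.972), Bcl3 (0.965), P2ry2 (0.963) and Serpina3f (0.955). These libraries share pools, cell type and depth, and the values are a description. Bcl3, a regulator of NF-kappaB, was at 72.8 ± 26.9 CPM in kainate glia and 2.38 ± 1.83 in sham glia (SD, n = 3 and 2). Itga5, the alpha chain of a fibronectin receptor, was at 90.7 ± 20 and 9.01 ± 2.89 CPM. After removal of the mean of each cell type, Itga5 stayed among the closest genes, with Serpina3i (0.975), Sphk1 (0.965) and Amotl1 (0.945). Each of the 10 genes is part of the mean it is set against. Before this removal Tm4sf1 had the highest r with it (0.962) and after it Emp1 (0.962), while Cd109 had the lowest in both (0.553 and 0.434).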

How the data were processed

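The deposited values are raw counts for 53379 genes in 11 mRNAseq libraries. Before deposit, the authors used Trim Galore for trimming and Rsubread for alignment, and featureCounts assigned uniquely mapped reads to the genes of mouse GENCODE release 16. What the replicate numbers share is not given in the sources used here. The study sequenced its mRNA libraries in separate runs on different instruments, with single reads or with longer paired-end reads. The paper does not say which library was in which run. The deposited protocol names right hippocampi, while the study's methods and sample titles give the left, which is used here. The 11 bisulfite samples were not analysed here.

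Of these, 105 had no symbol and were dropped. The filterByExpr function of edgeR, with a minimum count of 10 and a minimum total of 15, retained 40714. Counts were scaled by TMM, which also gives the normalized CPM, and edgeR's quasi-likelihood model was fitted to 4 group means over all 11 libraries, which share 1 estimate of the spread. This departs from the study, which analysed neurons and glia separately. Residual degrees of freedom were 7 and prior ones 6.76, and the common biological coefficient of variation came to 0.6. Adjusted p-values (FDR) are by the Benjamini-Hochberg method over all genes tested, with 0.25 as the study's threshold. The analysis ran in R 4.3.3 with limma 3.58.1, DESeq2 1.42.0 and edgeR 4.0.16. A run on simulated counts required only a small median error of the logFC. It used a biological coefficient of variation below 0.6, so it does not vouch for the FDR values. Without a block, the p-values measure the spread between pools. With the replicate block they measure the spread left after an assumed pairing, on fewer residual degrees of freedom. In glia this pairing rests on 2 pairs. Libraries of the same number tended to deviate together (correlations of deviations from the group means of 0.643, 0.161 and 0.491 in neurons and 0.76 and 0.787 in glia), and the block fit is given where it changed a call. The deviations of the 2 sham glia libraries mirror each other, so the glia values are not independent. These correlations come from the same data and do not show what the numbers share. Neurons and glia of 1 pool come from the same mice (0.24 to 0.668).

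Gene positions and exonic lengths are from GENCODE release M21 (GRCm38), and no exonic bases of the 10 genes were shared with another gene. The genes and lists were chosen with earlier results of these data known. All 10 genes are named, of each list the genes below the threshold in a kainate comparison, at most 6 by smallest p, and the 5 genes most like the 10, of which 1 is not reported here. Slc1a2, Slc1a3 and Gja1 are named as examples of the astrocyte list. Its other named genes, and the values for Slc1a3 and Gja1, were picked after the data were seen. Alternatives were DESeq2's size factors, its Wald test, fits of each cell type alone, other filters, the newer method of edgeR, FDR below 0.05, a covariate for low RNA input, and leaving out each library, both libraries of low input or, added after the data were seen, those of replicate 1, and fits of each cell type alone with filterByExpr not given the groups.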

Additional observations from a re-analysis of the deposited data

Results flagged for a closer look

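The effect of kainate differed between neurons and glia for 6 of the 10 genes when the replicate number was a block within each cell type (edgeR, FDR below 0.25), as it did for 1.94% of all genes. The differences, neurons minus glia on the log2 scale, were 1.54 for Vim, -1.34 for Nes, -2.2 for Serpina3n, -1.9 for Cd44, -1.73 for Emp1 and -2.3 for Tm4sf1. None passed without the block over all 11 libraries or with the pool as the block. For Vim the difference was 0.47 without the libraries of replicate 1 (no block).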

How the results depend on the processing

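In neurons the number of upregulated genes of the 10 (1 without a block) was 0 at FDR below 0.05 or with low RNA input as a covariate, 2 without both libraries of low input, 5 in a separate fit, 6 in a separate fit with a filter without groups, 6 by DESeq2's Wald test, 6 without the libraries of replicate 1, 7 with the replicate block and 0 to 3 with 1 library left out (0.0123% to 0.375% of all genes). In glia (4) it was 0 at FDR below 0.05, in a separate fit and without both libraries of low input, 2 in a separate fit with a filter without groups, 7 without the libraries of replicate 1, 7 with the replicate block and 0 to 5 with 1 library left out (0.00225% to 5.53% of all genes). A different effect in neurons and glia (0) was found for 6 with the replicate block, for 1 (Serpina3n) without the libraries of replicate 1, and for 0 with any 1 library left out. Between neurons and glia of sham mice (2) the number was 5 with the replicate block by pool, 8 without the libraries of replicate 1 and 2 to 4 with 1 library left out. In kainate mice (8) it was 5 at FDR below 0.05 and 6 to 9 with 1 library left out. With 1 library left out, 5.79% to 14.3% of all genes were lower in neurons in sham mice and 5.53% to 15.5% in kainate mice. The share of all genes at FDR below 0.05 was not counted. For the 10 genes, the block changed no other call than those given with the results. Of the 5 genes most like the 10, 2 stayed after the cell type means were removed. Cd109 between sham neurons and glia passed in opposite directions, at 1.27 on the log2 scale (FDR = 0.247) without sham glia replicate 3 and at -1.17 without sham glia replicate 1. Estimates that did not pass turned sign in some settings, as those of Lcn2, Steap4 and Cd109 did in glia. DESeq2 gave no adjusted p for Lcn2 and Steap4 in the kainate comparisons. Their counts of at most 93 per library limit what can be said of both.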
